A study of Mus musculus with 32 samples.

Results

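Reg lectins and epithelial defence genes were examined in sorted mouse intestinal stem cells: Reg3a, Reg3b, Reg3g, Reg4, Pigr, Ubd, Duox2, Nos2 and Lcn2. The 9 genes were found by gene symbol among the 54418 Ensembl identifiers of the deposited count table, and each matched 1 identifier. RNA came from GFP-high intestinal stem cells, stained for the epithelial surface protein CD326 and with DAPI, and was profiled by high-throughput 3' digital gene expression, a method that tallies 1 end of each transcript. The study's title concerns fatty acid oxidation under a high-fat diet. Its mutant groups carry a null allele of Ppara, floxed alleles of Ppard, or both. These genes encode nuclear receptors activated by fatty acids. The mice of all 8 groups carry the strain label C57BL6, and each group holds 4 libraries. WT mice, wildtype at both loci, were fed a control or a high-fat diet. PparD mice (Ppard-fl/fl), PparA mice (Ppara-null) and PparDA mice (both alleles) were each fed the same pair of diets. The sources used here do not give how the floxed Ppard alleles were recombined, which promoter drives GFP, or the length of feeding. Nor do they tie the 4 libraries of a group to separate animals, and a p here measures only the spread among samples, which may be technical in part. As given below, each group held libraries high in the female-specific Xist and libraries with the Y-linked Ddx3y. Its 4 libraries were thus not all of 1 animal, and the spread includes this difference.

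Reg proteins are small secreted C-type lectins made by the gut epithelium. Reg3b and Reg3g encode bactericidal lectins that keep bacteria away from the epithelial surface, and Reg3a encodes a close relative of both. In the mouse intestine their transcription is induced by microbial colonisation, through epithelial MyD88 signalling and through IL-22 acting on STAT3. Reg4 encodes a more distant lectin of the family that marks secretory cells of the crypt, among them enteroendocrine and deep crypt secretory cells. Pigr encodes the polymeric immunoglobulin receptor, which carries IgA across the epithelium into the lumen. Duox2 encodes a dual oxidase and Nos2 the inducible nitric oxide synthase, both sources of reactive molecules. Lcn2 encodes lipocalin 2, which withholds bacterial siderophores, and Ubd encodes FAT10, a ubiquitin-like modifier induced by interferon gamma and TNF.

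Reg3b, Reg3a and Reg3g lie in one cluster of Reg genes on mouse chromosome 6. In the GENCODE annotation of GRCm38, the assembly called mm10, 6 Reg genes span 98.2 kb, from base 78370657 to base 78468872. Reg3b opens the cluster on the plus strand, Reg3a follows 7.24 kb after its end, and Reg3g closes it on the minus strand, 92.8 kb from Reg3b. Reg4 lies apart on chromosome 3 (98222156 to 98236748, plus strand), Pigr on chromosome 1 (130826684 to 130852249, plus strand), Lcn2 and Duox2 on chromosome 2, Nos2 on chromosome 11 and Ubd on chromosome 17. The identifiers of the tested members are ENSMUSG00000071356 (Reg3b), ENSMUSG00000030017 (Reg3g), ENSMUSG00000079516 (Reg3a), ENSMUSG00000027876 (Reg4) and ENSMUSG00000026417 (Pigr). Start regions from RefSeq (GRCm38.p6) are shown for the 3 Reg3 genes, because Reg3b and Reg3g moved together across libraries, with a far lower coefficient for Reg3a. Each runs 5′ to 3′ on the gene's own strand, from 250 bases before the annotated start to the 9 bases from that start on. Reg3b lies at chr6:78370635-78370893 (plus strand), Reg3g at chr6:78468866-78469124 (minus strand) and Reg3a at chr6:78380459-78380717 (plus strand). For Reg3b the annotations differ, as the GENCODE start, base 78370657, falls early in this stretch. Most of its bases before the RefSeq start, with the STAT-type match given below, thus lie inside the GENCODE gene. Capitals mark the longest run of bases that Reg3b and Reg3g share, and in Reg3a the longest run it shares with Reg3g.
Reg3b: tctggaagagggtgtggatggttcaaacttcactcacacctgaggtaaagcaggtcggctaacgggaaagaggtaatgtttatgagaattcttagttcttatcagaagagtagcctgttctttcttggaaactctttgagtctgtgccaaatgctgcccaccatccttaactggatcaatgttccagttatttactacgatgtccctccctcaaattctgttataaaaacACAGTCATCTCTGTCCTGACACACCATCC
Reg3g: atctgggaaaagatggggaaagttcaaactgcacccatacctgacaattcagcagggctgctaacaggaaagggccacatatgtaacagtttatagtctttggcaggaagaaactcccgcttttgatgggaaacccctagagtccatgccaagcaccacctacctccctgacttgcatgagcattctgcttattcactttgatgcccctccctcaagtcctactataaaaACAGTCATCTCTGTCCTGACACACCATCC
Reg3a: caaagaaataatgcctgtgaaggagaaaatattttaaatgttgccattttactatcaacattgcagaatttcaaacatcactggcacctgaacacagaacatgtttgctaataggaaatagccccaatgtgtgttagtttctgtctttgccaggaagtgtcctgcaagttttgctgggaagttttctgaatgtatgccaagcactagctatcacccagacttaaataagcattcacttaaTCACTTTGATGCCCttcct
Aligned over the full RefSeq windows of 300 bases (250 before the start and 50 from it on), Reg3b and Reg3g were identical at 207 bases (69%). Their shared run of 29 bases, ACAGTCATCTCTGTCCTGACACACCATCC, sat at the same place in both, from 20 bases before the annotated start. Reg3a was identical to Reg3g at 184 bases and shared at most 14 in a row with it, TCACTTTGATGCCC, while the other 26 of 28 pairs among the 8 members with a window had 141 to 168 identical bases. A STAT-type motif, TTCNNNGAA, was found on either strand in 8.3% of 32851 RefSeq windows. It was found in Reg3b, as TTCTTGGAA at 129 to 121 bases before the start, and in Pigr, as TTCCTGGAA after it. An NF-kB-type motif, GGG and CC with any 5 bases between them, was found in 50.8% of all windows and in those of Pigr, Lcn2, Reg3g and Ubd. An interferon-response motif, a GAAA, any 2 bases and a GAAA, was found in 3.44% of windows, and the PPAR-type repeat of AGGTCA with 1 base between in 0.0396%. Neither was found in a member's window. All motifs were searched on both strands. In Pigr a pair of the NF-kB-type matches overlap. A match is a description of letters and not a bound site.

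Library totals ran from 612672 to 724155 counts, with 11683 to 12212 genes detected, so 3 counts in 1 library corresponded to 4.03 to 4.93 CPM (counts per 1e+06, scaled by TMM factors). Stem cell markers (Lgr5, Olfm4 and 9 others) summed to 8226 to 14293 CPM in every library. Most of this sum was Olfm4. In library 1, for example, Olfm4 had 9565 of 10573 CPM and Lgr5 had 29.4 CPM. Markers of Paneth cells summed to 2168 to 45812 CPM, of goblet cells to 1479 to 8402 CPM and of enterocytes to 1327 to 5339 CPM. Of 20 leukocyte markers 4 were at 0 everywhere, among them S100a8, and the list summed to 1 to 66 counts per library. The column numbers form 4 runs of 8 consecutive libraries, and each run holds every group once. Libraries of runs 1 and 3 had 465 to 928 CPM of the female-specific Xist and no count of the Y-linked Ddx3y, and those of runs 2 and 4 had at most 9.7 CPM of Xist and 14.3 to 38.8 CPM of Ddx3y. Values below are listed in the order of runs 1, 2, 3 and 4, with values from runs 1 and 3 and from runs 2 and 4 beside the results that they moved most. In bulk RNA, fewer cells of a type and less RNA per cell cannot be told apart.

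Of the 9 members, 5 passed the filter on low counts and were tested: Reg3b, Reg3g, Reg4, Pigr and Reg3a. Ubd, Duox2, Nos2 and Lcn2 did not pass it. Pigr was the steadiest member, with a median of 675 CPM and a range of 580 to 877 CPM over 32 libraries, a ratio of 1.51. Reg3b had a median of 220 CPM but ranged from 12.7 to 4099 CPM, a ratio of 322. Reg3g ranged from 25.4 to 2788 CPM around a median of 215 CPM, a ratio of 110. Reg4 ranged from 18.9 to 251 CPM around a median of 86.9 CPM, and Reg3a from 0 to 38.6 CPM around 6.1 CPM. Among the 4 members with a count in every library, the ratio was highest for the bactericidal lectins and lowest for the immunoglobulin receptor. Reg3a and the 4 untested members had libraries at 0 and so no ratio. Levels here are reads near the 3' end, so they are not divided by transcript length. For each tested member the 8 groups were put in order of mean CPM. In none of the 7 neighbouring pairs of that order did the libraries of 1 group all lie above those of the next. Neighbours in such an order lie closest in mean, so this says nothing on groups further apart. The share of other genes with such a pair is not given here.

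**Figure D1:**
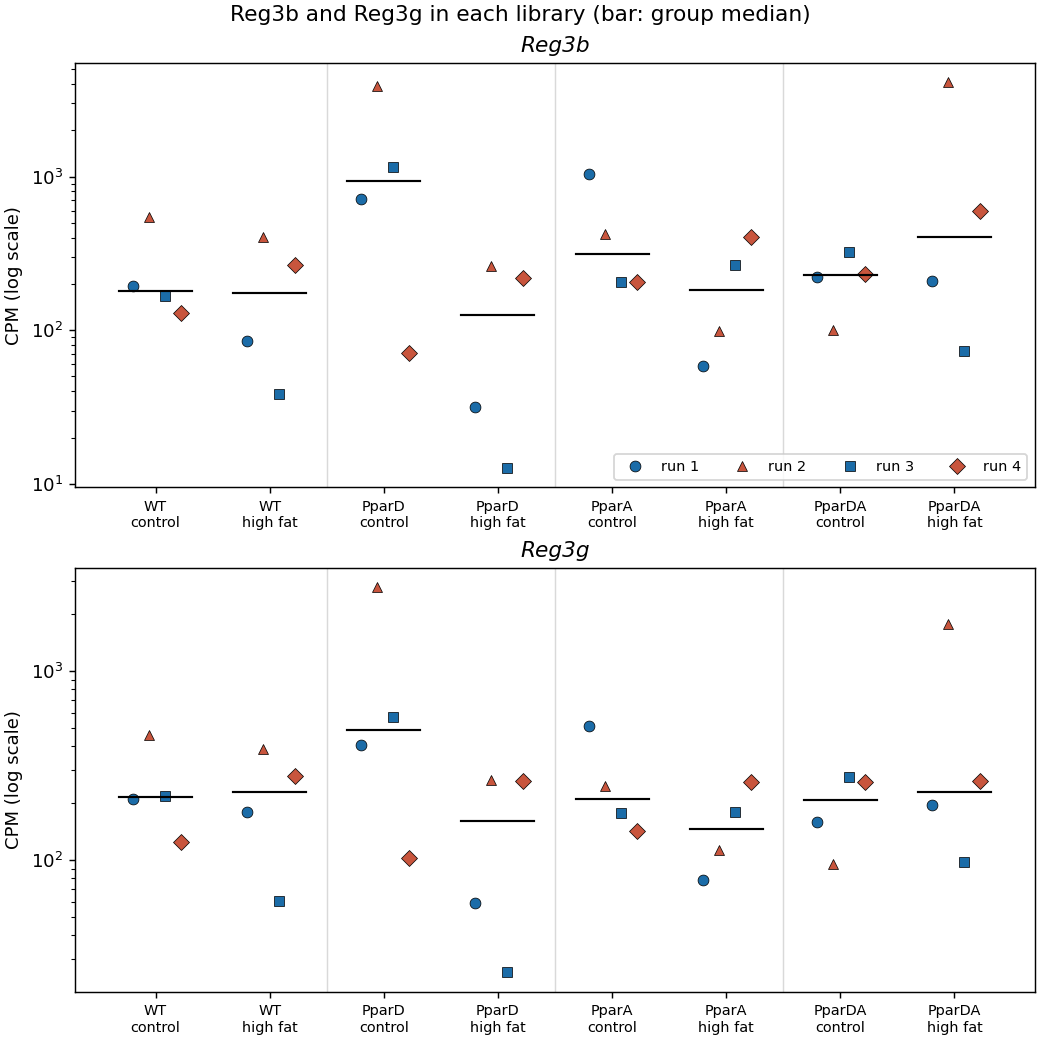
Reg3b (top) and Reg3g (bottom) in each of 32 libraries, in CPM on a log axis, by genotype and diet, with the run shown by symbol and the group median as a bar. Each gene's values in most groups spread over a wide range, and the 2 highest Reg3b libraries, at 3869 and 4099 CPM, both belong to run 2.

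Reg3b and Reg3g were highest, as group means, in PparD mice on the control diet and in PparDA mice on the high-fat diet. In both groups 1 library lay far above the others. By group median PparD control was still the highest, at 936 CPM of Reg3b and 489 CPM of Reg3g. PparDA high-fat had medians of 404 and 228 CPM. PparD control libraries had 714, 3869, 1157 and 71.0 CPM of Reg3b, and PparD high-fat libraries had 31.8, 261, 12.7 and 218 CPM. Control libraries of runs 1, 2 and 3 exceeded every high-fat library, the control library of run 4 lay among the high-fat ones, and so the groups overlapped. The means were 1453 ± 1671 and 131 ± 127 CPM (SD, n = 4), and the log2 fold change for the high-fat diet was -3.47 ± 1.06 (SE), with an adjusted p of 0.481 (edgeR quasi-likelihood test). Without library 11, the run 2 control library, it was -2.31.

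Reg3g had the same layout in PparD mice. Control libraries had 406, 2788, 572 and 102 CPM and high-fat libraries 59.2, 265, 25.4 and 261 CPM. As with Reg3b, runs 1, 2 and 3 were higher on the control diet and run 4 was not. The log2 fold change was -2.66 ± 0.84 (adjusted p 0.539, edgeR), and -1.24 without library 11. In runs 1 and 3 alone it was -3.52 (adjusted p 0.068), and in runs 2 and 4 it was -2.45 (adjusted p 0.992). Reg3b stood at -5.38 in runs 1 and 3 (adjusted p 0.0536) and at -3.03 in runs 2 and 4 (adjusted p 0.992).

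In PparDA mice the sign was the other way round. Reg3b had 223, 101, 322 and 233 CPM on control diet and 208, 4099, 73.0 and 600 CPM on high fat. Runs 2 and 4 were higher on the high-fat diet and runs 1 and 3 lower, so the groups overlapped. The log2 fold change of 2.49 ± 1.01 (adjusted p 0.46, edgeR) was 0.41 without library 16, the run 2 high-fat library. In runs 1 and 3 it was -0.98 and in runs 2 and 4 it was 3.81. Reg3g in PparDA mice had 158, 95.4, 274 and 258 CPM on control diet and 195, 1778, 97.8 and 262 CPM on high fat. Its log2 fold change was 1.57 ± 0.81 (adjusted p 0.589, edgeR), -0.10 without library 16, -0.58 in runs 1 and 3 and 2.53 in runs 2 and 4. Most of the size of both values in PparDA mice therefore came from 1 library.

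In WT mice Reg3b had 194, 543, 166 and 129 CPM on control diet and 84.7, 405, 38.2 and 265 CPM on high fat. The ranges overlapped and 3 of 4 runs were lower on the high-fat diet, with a log2 fold change of -0.39 ± 0.99 (adjusted p 0.973, edgeR). Reg3g in WT mice had 210, 460, 219 and 125 CPM on control diet and 180, 387, 60.9 and 278 CPM on high fat. Again 3 of 4 runs were lower on the high-fat diet, at -0.17 ± 0.80 (adjusted p 0.987). In runs 1 and 3 the values were -1.56 for Reg3b and -0.84 for Reg3g. Neither sign held in runs 2 and 4, where the values were 0.00 for Reg3b and 0.19 for Reg3g, or without library 9, where they were 0.28 and 0.29.

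PparA mice had 1034, 425, 205 and 205 CPM of Reg3b when fed control diet, against 58.2, 98.5, 265 and 402 CPM on high fat. Control libraries were higher in runs 1 and 2 and lower in runs 3 and 4, and the log2 fold change was -1.18 ± 0.99 (adjusted p 0.947, edgeR), or -0.44 without library 5. It was -1.94 in runs 1 and 3 and -0.32 in runs 2 and 4. Reg3g in the same mice averaged 270 ± 169 CPM on control diet and 158 ± 80 CPM on high fat (SD, n = 4). Its log2 fold change was -0.78 ± 0.82 (adjusted p 0.963), or -0.26 without library 5.

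The difference between the diet effects was tested directly. For Reg3b the diet effect in PparD minus that in WT was -3.09 ± 1.42 on the log2 scale (adjusted p 1, edgeR), and -1.92 without library 11. In PparDA minus WT it was 2.88 ± 1.40 (adjusted p 0.828), and 0.80 without library 16. For Reg3g these differences were -2.50 ± 1.15 (adjusted p 1; -1.07 without library 11) and 1.73 ± 1.14 (adjusted p 0.875; 0.07 without library 16). Averaged over the 4 genotypes, the diet effect on Reg3b was -0.64 ± 0.49 (adjusted p 0.779). Within runs 1 and 3 it was -2.46 and passed the test (adjusted p 0.0308; 0.119% of genes called), and within runs 2 and 4 it was 0.11 (adjusted p 0.991). Reg3g averaged -0.51 ± 0.40 (adjusted p 0.785), with -1.59 in runs 1 and 3 (adjusted p 0.0562) and 0.06 in runs 2 and 4. A pair of runs holds only 2 libraries a group. In runs 1 and 3 Reg3b stood at -5.38 in PparD, -1.94 in PparA, -1.56 in WT and -0.98 in PparDA. The pooled test made no call. Whether the diet effect itself differs between the pairs of runs was not tested.

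Against WT on the control diet, Reg3b in PparD mice stood at a log2 fold change of 2.49 ± 1.0 (adjusted p 0.48, edgeR), or 1.32 without library 11. Reg3g stood at 1.93 ± 0.81 (adjusted p 0.503), or 0.50 without library 11. Against WT on the high-fat diet, Reg3b in PparDA mice was at 2.65 ± 1.02 (adjusted p 0.224) and was higher in 4 of 4 runs, but at 0.57 without library 16, and the groups overlapped. In library 11 the Paneth, goblet and enterocyte marker sums were 3830, 1479 and 1447 CPM, and in library 16 they were 17123, 4759 and 2085 CPM. Leukocyte markers in these libraries summed to 3 and 9 counts. The part of these markers in the high Reg3b and Reg3g values was not tested.

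Reg3b and Reg3g were closely correlated on the log scale. Across 32 libraries their log2 CPM had a Pearson r of 0.97 and a Spearman rho of 0.93. The permutation p was 1e-05, the smallest that 1e+05 random pairings can give, and 0.0001 after adjustment over 10 pairs of members. The coefficient was 0.95 without the 2 libraries farthest from the median of Reg3b, and 0.97 once group means were removed. It was 0.97 in runs 1 and 3 and 0.96 in runs 2 and 4 (n = 16 each). The Reg3b count divided by the Reg3g count ranged from 0.472 in library 2 to 2.31 in library 16, with a median of 1.05, so the pair was not in a fixed proportion. The 2 transcripts share 5 of the 1120 stretches of 31 bases in Reg3b (0.446%) and of the 2164 in Reg3g (0.231%), and no other pair of the Reg genes named here shares any, so reads seldom fit both. The other 9 pairs of tested members had coefficients between -0.30 and 0.33 and adjusted permutation p of 0.171 or more. Reg3a with Reg3b gave 0.32 and with Reg3g 0.23.

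**Figure D2:**
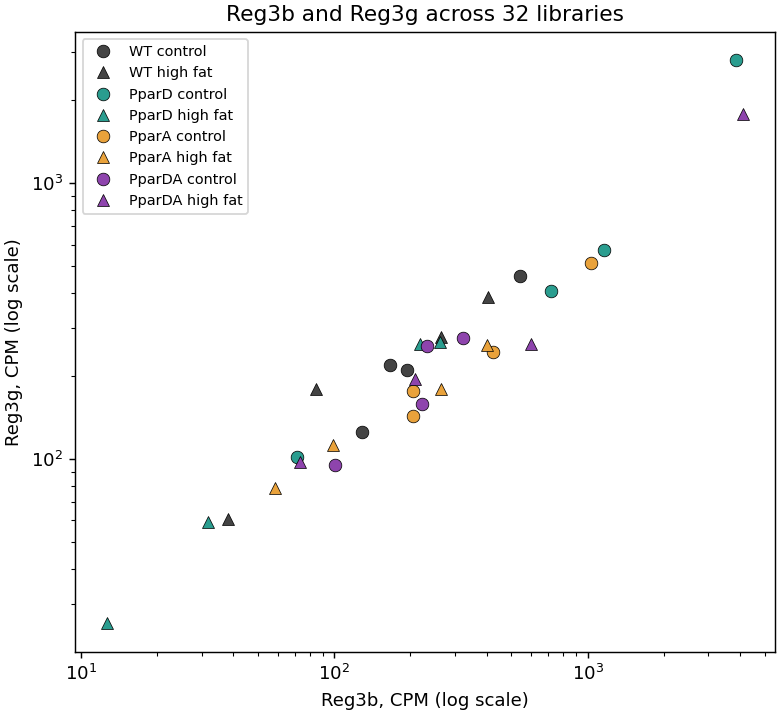
Reg3g against Reg3b in 32 libraries, both in CPM on log axes, with genotype as colour and diet as symbol (circle, control; triangle, high fat). The libraries lie along 1 line over a Reg3b range of 12.7 to 4099 CPM, and the r of log2 values is 0.97.

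Genes outside the 9 members whose library-to-library pattern was most like each member's were found by Pearson's r over 32 libraries after group means were removed. These are descriptions over libraries that share runs, with no test. For Reg3b they were Abcf1 (0.67), Rsl1d1 (0.66) and Emc2 (0.64). For Reg3g they were Ceacam10 (0.67), Abcf1 (0.66) and Pla2g2a (0.66), which encodes a bactericidal secreted phospholipase. No gene outside the members came near the coefficient that Reg3b and Reg3g had with each other.

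Reg4, the lectin of secretory cells, gave the one call among the members in the 15 comparisons. In PparDA mice on the control diet it had 88.9, 129, 140 and 251 CPM, and in WT mice on the control diet 69.6, 39.3, 61.9 and 44.4 CPM. Every PparDA library exceeded every WT library, so Reg4 rose and the groups did not overlap. How many of all genes also did not overlap is not given here. The means were 152 ± 69.5 and 53.8 ± 14.3 CPM (SD, n = 4), with a log2 fold change of 1.49 ± 0.40 (SE) and an adjusted p of 0.0428 (edgeR). Of the 5 tested members 1 was called in this comparison, where 1.87% of 5872 genes were called. Leaving out Reg3a, Reg4 alone had an unadjusted p under 0.05, as did 13.8% of genes. The call is close to the threshold. DESeq2 also called it (adjusted p 0.0317; 1.92% of genes called), but with a robust prior the adjusted p was 0.0856. Leaving out each of the 8 libraries kept the direction (1.15 to 1.68) and ended the call in 7 of 8 cases, with adjusted p between 0.0274 and 0.218. It was 2.19 in runs 2 and 4 (adjusted p 0.0427; 0.971% of genes called) and 0.79 in runs 1 and 3 (adjusted p 0.404).

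Reg4 by diet was higher on high fat in 3 of the 4 genotypes as group means, without a call in any. In WT mice the control values given above stood against 188, 94.8, 126 and 52.5 CPM on high fat. All 4 runs were higher on the high-fat diet, though the lowest high-fat library lay within the control range. In PparD mice Reg4 had 23.2, 18.9, 29.6 and 65.4 CPM on control diet and 86.6, 53.9, 70.6 and 93.1 CPM on high fat. In PparA mice it had 46.9, 60.2, 29.7 and 89.8 CPM on control diet and 87.2, 205, 105 and 166 CPM on high fat. Each run was again higher on the high-fat diet in both genotypes, with overlapping ranges. PparDA mice on the high-fat diet had 71.9, 210, 135 and 109 CPM, higher than on the control diet in 1 of 4 runs.

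The log2 fold changes of Reg4 for the high-fat diet were 1.09 ± 0.40 in WT (adjusted p 0.534), 1.14 ± 0.43 in PparD (0.793), 1.30 ± 0.40 in PparA (0.437) and -0.21 ± 0.37 in PparDA (0.934), all by edgeR. None passed the test in 1 genotype alone. Averaged over genotypes the value was 0.83 ± 0.20 with an adjusted p of 0.0625, higher in 13 of 16 pairs of libraries of the same run and genotype. This average also missed the threshold. It passed with DESeq2 (adjusted p 0.0221; 0.698% of genes called) and within runs 1 and 3 (0.99, adjusted p 0.0308), and did not within runs 2 and 4 (0.66, adjusted p 0.716). It also passed in edgeR with the run as a factor (0.85, adjusted p 0.0362; 0.749% of genes called), though the columns carry no replicate number. Leaving out 1 library gave 0.75 to 0.96, and the call was made without library 6, 8, 25, 27, 29 or 31, at adjusted p down to 0.0181. The diet effect in PparDA minus that in WT was -1.30 ± 0.54 (adjusted p 0.793), so a difference between these genotypes in the diet effect was not shown.

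**Figure D3:**
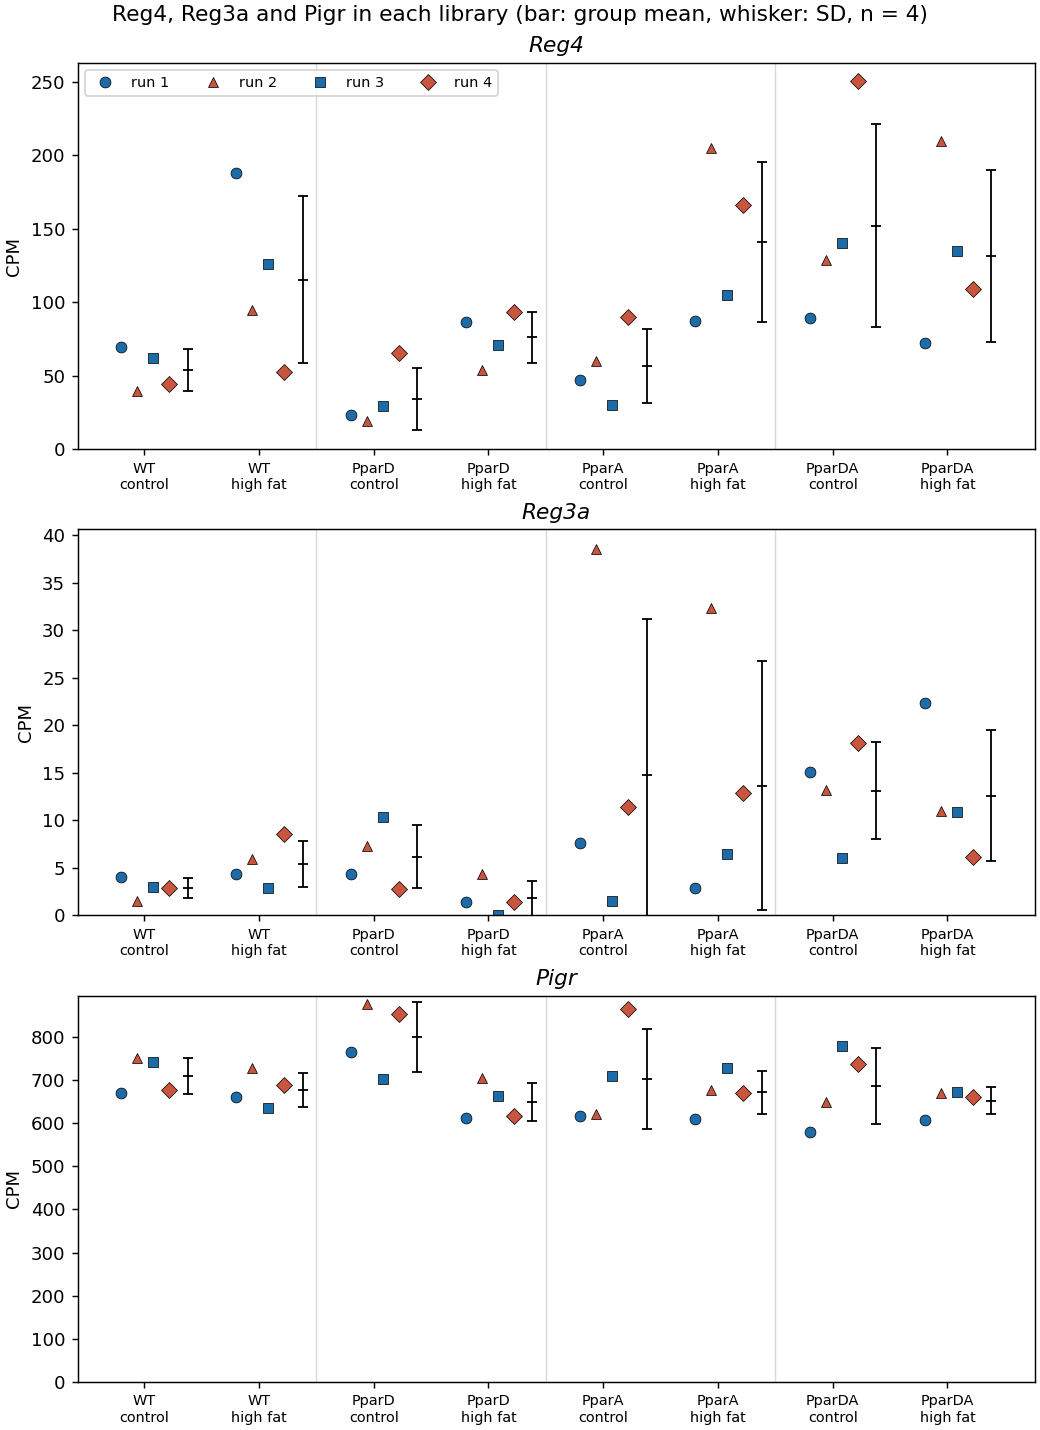
Reg4, Reg3a and Pigr in each library, in CPM on axes that start at 0, by genotype and diet, with the run shown by symbol and the group mean ± SD (n = 4) as a bar with whiskers. Reg4 in PparDA control libraries, 88.9 to 251 CPM, lies above the 39.3 to 69.6 CPM of WT control libraries, Reg3a is above 20 CPM in 3 libraries, all of Ppara-null mice, and Pigr stays between 580 and 877 CPM.

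Markers of several differentiated cell types, secretory and absorptive, were set beside the Reg4 values by group. The goblet list averaged 3797 CPM in WT control libraries (1691 to 4754) and 5505 on the high-fat diet (3036 to 6595). It averaged 2247 and 3821 CPM in PparD mice, 3638 and 5366 in PparA mice, and 5667 and 5227 in PparDA mice. As group means this was the same order of diets as Reg4 in each genotype. In WT, PparD and PparA mice both were higher on high fat in every run. PparDA goblet sums were 2972, 6297, 6192 and 7209 CPM on control diet and 3753, 4759, 8402 and 3995 CPM on high fat. There the goblet sum and Reg4 moved in opposite directions in runs 1, 2 and 3. Paneth markers averaged 7612 CPM in WT control (4198 to 16309) and 21982 in WT high-fat libraries (7356 to 45812), and enteroendocrine markers 78.8 and 133 CPM. In PparDA against WT on the control diet, 2 of 9 tested goblet markers rose and none fell, and the median of the list was 0.75 against 0 for all tested genes. They were Zg16, a lectin that binds bacteria, at 2.57 ± 0.66 (adjusted p 0.0347, edgeR) and Clca1, a mucus-processing protease, at 2.49 ± 0.60 (adjusted p 0.0228). In the same comparison 13 of 13 tested Paneth markers and 13 of 13 enterocyte markers had positive values, with larger medians of 1.19 and 1.58, and none was called. Enterocyte markers summed to 2255 to 2535 CPM in the PparDA control libraries and to 1457 to 1682 CPM in the WT ones. Reg4 did not follow these markers in PparA against WT. There 13 of 13 enterocyte markers had positive values on the control diet (median 2.16) and 12 of 13 on high fat (median 2.05). None of them was called. Reg4 stood at 0.08 ± 0.42 (adjusted p 0.986, edgeR) and 0.29 ± 0.37 (adjusted p 0.837). For the averaged diet effect, 13 of 13 Paneth, 9 of 9 goblet and 4 of 4 enteroendocrine markers tested had positive values. Their medians were 0.72, 0.5 and 0.68, and none of these was called. Of 13 enterocyte markers tested, 7 had positive values, with a median of 0.21. Among them 1, Fabp2, was called (0.53 ± 0.12, adjusted p 0.0336, edgeR), where 0.324% of all genes were called. The 10 stem cell markers tested had 0 positive values and a median of -0.17. The part of these markers in the Reg4 values was not tested. The genes most like Reg4 across libraries were Ccl6 (0.69), Thoc3 (0.67) and Ltc4s (0.66), and Ccl6 is itself 1 of the 11 genes of the goblet list.

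Reg3a was the sparse lectin, with 184 counts in all, and most were in Ppara-null groups. PparA libraries had 7.57, 38.6, 1.56 and 11.4 CPM on control diet and 2.91, 32.3, 6.43 and 12.9 CPM on high fat. PparDA libraries had 15.1, 13.2, 6.08 and 18.1 CPM on control diet and 22.4, 11, 10.9 and 6.13 CPM on high fat. WT libraries had 4.01, 1.46, 3.02 and 2.86 CPM on control diet and 4.31, 5.93, 2.83 and 8.52 CPM on high fat. The 4 groups of Ppara-null mice averaged 12.6 to 14.8 CPM, against 1.81 to 6.18 CPM in the other 4. Of the mutant groups set against WT on the same diet, PparDA on the control diet alone did not overlap it. The share of all genes without overlap in that comparison is not given here, so the separation is a description only. The 5 libraries with at least 10 counts of Reg3a all belong to Ppara-null groups, and the gene passed the filter through them.

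None of the comparisons of Reg3a passed the test, and since the gene entered through Ppara-null libraries, its values against WT are given as a description. Against WT on the control diet the log2 fold change was 2.29 ± 0.75 in PparA (adjusted p 0.266, edgeR) and 2.12 ± 0.77 in PparDA (adjusted p 0.184). On the high-fat diet it was 1.29 ± 0.69 (adjusted p 0.481) and 1.19 ± 0.69 (adjusted p 0.482). These comparisons share their WT libraries on each diet. The PparA values rest largely on run 2: without library 13 the control value was 1.23 and without library 14 the high-fat value was 0.43, and runs 1 and 3 alone gave 0.35 in both. Runs 2 and 4 gave 3.42 on the control diet (adjusted p 0.0605) and 1.63 on the high-fat diet (adjusted p 0.321). For PparDA, runs 1 and 3 gave 1.53 on the control diet and 2.15 on the high-fat diet, against 2.76 and 0.24 in runs 2 and 4, and leaving out library 8 gave 0.77 on the high-fat diet. In PparD mice the diet value was -1.68 ± 0.94 (adjusted p 0.999), with 4.35, 7.25, 10.3 and 2.78 CPM on control diet and 1.44, 4.37, 0 and 1.43 CPM on high fat. In runs 1 and 3 this value was -3.05 and in runs 2 and 4 it was -0.75.

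Enterocyte markers were also highest where Reg3a was. Libraries 13 and 14, both PparA of run 2, had enterocyte sums of 4921 and 5339 CPM, the highest of the 32, beside Reg3a at 38.6 and 32.3 CPM. The genes most like Reg3a after group means were removed were Leap2 (0.79), an antimicrobial peptide of the liver and gut, Fabp1 (0.78), a fatty acid binding protein, and Apoa1 (0.78), an apolipoprotein of absorptive cells. Apoa1 stood at 692 and 735 CPM in libraries 13 and 14 and at 22.7 to 74 CPM in the WT libraries. Library 13 also had the highest leukocyte sum, 66 counts, of which 42 were Igkc, an immunoglobulin light chain. The part of these cells in the Reg3a values was not tested.

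Pigr differed little, and its values for the high-fat diet were small. Group means ran from 650 ± 44.1 CPM in PparD high-fat to 800 ± 81.3 CPM in PparD control libraries. PparD control libraries had 765, 877, 702 and 855 CPM and high-fat libraries 612, 706, 664 and 618 CPM. High-fat libraries lay below control libraries in all 4 runs, the ranges just overlapped, and the log2 fold change was -0.30 ± 0.10 (adjusted p 0.784, edgeR). In WT it was -0.07 ± 0.10 (adjusted p 0.94). Averaged over genotypes it was -0.13 ± 0.05 (adjusted p 0.437), lower on the high-fat diet in 11 of 16 pairs. The genes most like Pigr were Slc25a1 (0.65), the mitochondrial citrate carrier, Hk2 (0.65), a hexokinase, and Ces1e (0.64), a carboxylesterase.

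The oxidases, Ubd and Lcn2 were near the limit of detection. Duox2 had 31 counts in 15 of 32 libraries, Nos2 had 7 counts in 5, Ubd 6 counts in 5 and Lcn2 3 counts in 2. The highest value of Duox2 was 7.18 CPM (5 counts) in a WT high-fat library of run 1, followed by 6.27 CPM in a PparDA high-fat library of run 2. All 4 PparD high-fat libraries were at 0 for Duox2, which allows up to 3 counts in the group or 1.08 CPM. Ubd was at 0 in 3 of 8 groups, and both PparA groups were among them. Nos2 reached 4.18 CPM, 3 counts, in a PparD control library of run 4, and Lcn2 2.90 CPM in a PparD control library of run 2, which is library 11, the one with 3869 CPM of Reg3b. The 12 diet comparisons of these genes that had any count gave adjusted p of 1 (exact two-sided permutation tests, smallest p possible 0.0286). With 4 libraries a group, 1 comparison alone could not pass the adjustment over 12, so these tests say nothing on whether the levels differed.

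**Figure D4:**
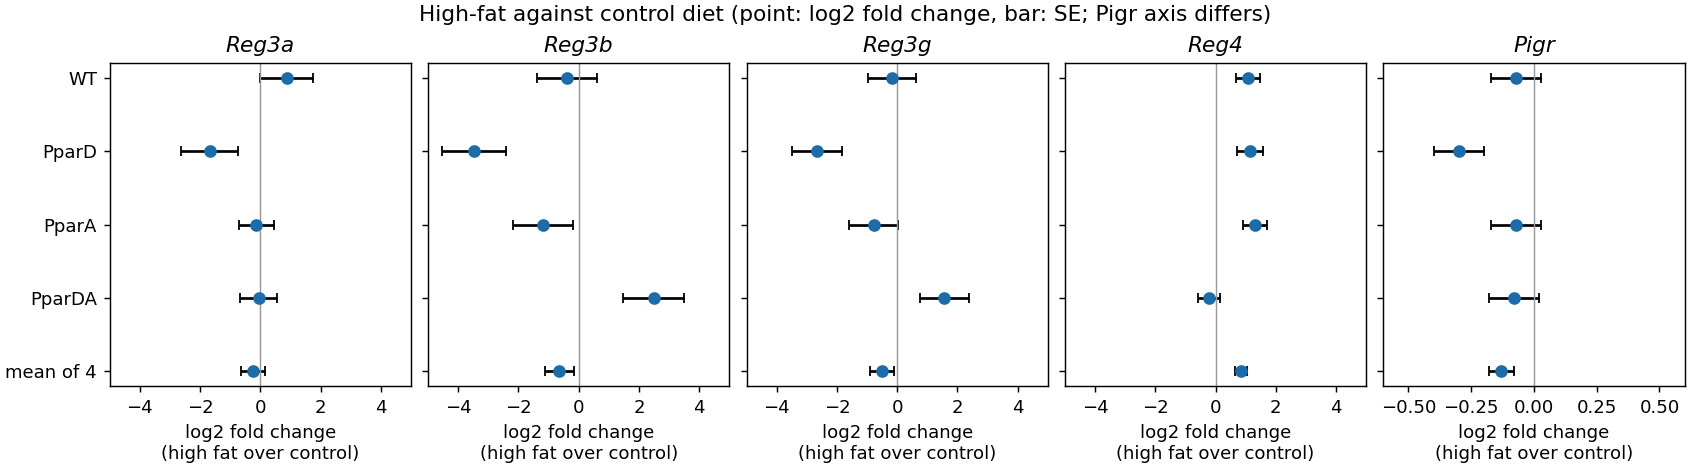
Log2 fold change of high-fat over control diet for the 5 tested members in each genotype and averaged over the 4, with bars for the SE (Pigr on a narrower axis). Reg3b runs from -3.47 in PparD to 2.49 in PparDA, Reg4 is near 1 in WT, PparD and PparA, and none of the plotted diet values passed the test.

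With all 32 libraries in the fit of group means, edgeR called no member in a diet comparison. In WT the count was 0 of 5, where 0.102% of 5872 genes were called, and 1 member had an unadjusted p under 0.05, as did 7.66% of genes. In PparD it was 0 of 5 with 0.0851% of genes called, and 4 members were under an unadjusted 0.05 (Reg3b, Reg3g, Reg4 and Pigr), against 4.99% of genes. In PparA it was 0 of 5 with 0.136% of genes called, and Reg4 was under an unadjusted 0.05, against 5.79% of genes. In PparDA it was 0 of 5 with 0.0341% of genes called, and Reg3b was under an unadjusted 0.05, against 8.79% of genes. For the diet averaged over genotypes it was 0 of 5 with 0.324% of genes called, and Reg4 and Pigr were under an unadjusted 0.05, against 9.04% of genes. DESeq2 called 0 members in each genotype and 1, Reg4, in the average. The median log2 fold change of the 5 tested members was -0.07 in WT, -1.68 in PparD, -0.13 in PparA and -0.06 in PparDA.

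The remaining comparisons between groups called no member by edgeR or DESeq2. For the diet effect in PparD minus that in WT, 0 of 5 members were called against 0.0511% of genes, and 2 members were under an unadjusted 0.05 against 3.61% of genes. In PparA minus WT the members were 0 and 0, against 0.153 and 8.19% of genes, and in PparDA minus WT 0 and 2, against 0 and 5.77% of genes. On the control diet PparD against WT had 0 members called and 2 under an unadjusted 0.05, against 0.204 and 7.71% of genes. PparA against WT had 0 called and, leaving out Reg3a, 0 under an unadjusted 0.05, against 0.562 and 8.89% of genes. On the high-fat diet PparD against WT had 0 and 0, against 0.017 and 3.78% of genes, and PparA against WT 0 and 0, against 0.749 and 11.7% of genes. PparDA against WT had 0 and 1, against 1.57 and 13.6% of genes.

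All 5 tested members had lower values in runs 1 and 3 than in runs 2 and 4. The log2 differences were -0.70 ± 0.33 for Reg3a, -1.12 ± 0.48 for Reg3b, -0.94 ± 0.37 for Reg3g, -0.26 ± 0.20 for Reg4 and -0.09 ± 0.05 for Pigr. Adjusted p was 0.29, 0.246, 0.197, 0.567 and 0.366 by edgeR with the run as a factor, so none was called, against 2.61% of genes. By unadjusted p 3 members were under 0.05, as were 15.5% of genes, and DESeq2 called 0. Reg3b averaged 299 CPM in the 16 libraries of runs 1 and 3 and 745 CPM in the others, and Reg3g 213 and 489 CPM. In the same contrast 8 of 13 Paneth markers fell, among them Lyz1, which encodes lysozyme (-1.46 ± 0.26, adjusted p 0.00111), and Ang4, a bactericidal ribonuclease (-1.59 ± 0.33, adjusted p 0.00444). The part of Paneth markers in the lectin values was not tested.

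Other genes of the same defence pathways gave few calls. Of 17 further secreted antimicrobial genes 7 were tested, and 0 passed in any of the diet comparisons, although all 7 had positive values in WT (median 1.45). Zg16 was the one that rose in PparDA against WT on the control diet. Reg1, a lectin gene of the same cluster, averaged 44.2 CPM in WT control and 258 CPM in PparA control libraries and was not called there (2.54 ± 0.85, adjusted p 0.283). Its PparA control libraries had 51.5, 641, 15.6 and 322 CPM, against 27.2 to 53.8 CPM in WT control. Saa1 and Retnlb, inducible defence genes of the gut, were at or near 0 in all groups. Of 10 oxidant-generating genes 5 were tested. None was called in a diet comparison, and Duoxa2, the maturation partner of Duox2, averaged 2.28 to 10.5 CPM. In the IL-22 and STAT3 pathway the receptor gene Il22ra1 averaged at most 1.17 CPM in a group and Stat3 2.5 to 8.44 CPM, and only 2 of 17 genes could be tested. Of 22 microbial sensing genes 7 were tested, with 1 call each in PparA and PparDA against WT on the high-fat diet. Both were Il18, an inflammasome cytokine gene, at 1.94 ± 0.43 (adjusted p 0.0207) and 1.67 ± 0.44 (adjusted p 0.0479), and these comparisons share the WT libraries. The IL-17 and NF-kB list, the interferon gamma list, MHC class II and the IgA and chemokine transport list held no call in any diet or genotype comparison.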

How the data were processed

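The authors deposited expected counts per gene and library, rounded to whole numbers, and log2(CPM + 1) values, which served as a check only. Per the submitters' processing notes, R 4.0.2, edgeR 3.30.2 and Salmon 1.1.0 were used with mm10. The sources used here do not state the use of molecular identifiers. Reads without them are not independent molecules, so floors in counts cover counting error only. Genes were kept by filterByExpr (minimum count 10, minimum total 15), which left 5872 genes with 97.1 to 97.7% of the counts. All 32 libraries entered 1 quasi-likelihood fit of the 8 group means in edgeR 4.0.16 (R 4.3.3, TMM factors 0.938 to 1.07), for 15 comparisons. Tests were two-sided, p was adjusted by Benjamini-Hochberg over all tested genes, and called means an adjusted p under 0.05. An SE is the fold change divided by the square root of F. The run comparison had the run as a factor. Of the identifiers, 54096 matched a GENCODE symbol. Correlations used log2 CPM with a prior count of 2.

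Alternatives were size factors of DESeq2 (RLE), DESeq2 1.42.0, no filter, a minimum count of 3 (added after seeing the data), a robust prior, only the groups compared, the run as a factor, each pair of runs, no TMM factors, and leaving out each library. The method was tested on simulated data. All members and their 3 nearest genes were named by rule, with up to 4 genes of smallest p per list. Other list genes were chosen after their values were seen. The members and lists were chosen with earlier results of these data known.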

Additional observations from a re-analysis of the deposited data

Results flagged for a closer look

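In 4 of 40 groups of 4 libraries, 1 for each tested member and group, 1 library lay far from the other 3 by Dixon's test, where chance gives about 1 in 20. Reg3b stood at 543 CPM in WT control library 9, against 129 to 194 CPM in the others. Reg3b at 4099 CPM and Reg3g at 1778 CPM both stood apart in PparDA high-fat library 16, where the others held 73.0 to 600 and 97.8 to 262 CPM. Pigr stood low at 607 CPM in PparDA high-fat library 8, against 662 to 672 CPM.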

How the results depend on the processing

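Without a filter 21299 genes entered. The prior degrees of freedom were then infinite, against 5.89 with the filter, so a gene's own spread did not enter the test. The SE of Reg3b for diet in PparD was 0.159 in place of 1.06. Calls made this way are no result about the members, and the share of all genes called is not given here. Between 1 and 3 members were called per comparison. These were 1 for diet in WT, 3 in PparD, 3 in PparA, 2 in PparDA and 3 in the average. They were 2, 1 and 3 for the diet differences of PparD, PparA and PparDA from WT, 2 for each mutant against WT on the control diet, 1, 1 and 2 for PparD, PparA and PparDA on the high-fat diet, and 2 for the runs. A minimum count of 3, added after seeing the data, RLE factors and the fit of only the groups compared changed no call of a member. The robust prior and runs 1 and 3 alone each left 0 calls in PparDA against WT on the control diet. For the averaged diet effect DESeq2 gave 1 call and runs 1 and 3 gave 2. The columns carry no replicate number. With a replicate block for the run, the averaged diet effect had 1 call, Reg4 at 0.85 (adjusted p 0.0362; 0.749% of genes called), and no other call of a member differed. As a check of pairing, 31 of 32 libraries correlated best with their own run after group means were removed, but the lowest correlation within a run was -0.03. Leaving out 1 library gave 0 to 1 calls in PparDA against WT on control and in the averaged diet effect. Signs turned in single-library omissions for Reg3b in WT (-1.0 to 0.28), Reg3g in WT (-0.55 to 0.29), Reg3g in PparDA (-0.10 to 1.91) and Reg4 in PparDA (-0.54 to 0.14). In runs 1 and 3 the diet values in PparDA turned to -0.98 for Reg3b and -0.58 for Reg3g. In runs 2 and 4 they turned to 0.00 and 0.19 in WT and to 0.11 and 0.06 in the average. The causes were not tested. Of 749 further member values under alternatives 78 had the other sign, and none of them is called in the report. Ubd, Nos2, Lcn2 and Duox2 had 3 to 31 counts in all, so their levels are imprecise.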
